A study of Rattus norvegicus with 23 samples.

Results

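Glutamine tRNA reads were followed in small RNA from cauda epididymal sperm of rats that had inhaled ozone. The members were all rows of the tRNA table whose name starts with tRNA-Gln-, which gave 13 of 273 rows, 9 with the anticodon CTG and 4 with the anticodon TTG. The 1 row named tRX-Gln was left out. The rule goes by row name alone, but it was chosen with earlier results of these data known. Male Long-Evans rats breathed filtered air in 7 cases, ozone at 0.4 ppm in 8 and ozone at 0.8 ppm in 8. Each exposure took 4 h, and there were 3 in week 1 and 2 in week 2. Chamber means were 0.401 and 0.798 ppm in the ozone groups. Each library is titled for 1 rat, and the labels name no allele and no agent besides ozone. The question was whether the noncoding RNA of sperm differs after ozone, an oxidant in polluted air.

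A glutamine tRNA carries glutamine to the ribosome. The CTG form pairs with the codon CAG, and the TTG form pairs with CAA and, by wobble, with CAG. Mature sperm translate little, and in mice much of their tRNA-derived RNA is present as fragments cut from tRNAs, to which the epididymis contributes. The rows give reads assigned to a tRNA gene and do not separate whole tRNAs from fragments, so a value below is a read signal for a gene and not an amount of intact tRNA. In a bulk sample of this kind, fewer cells of a type and less RNA per cell cannot be told apart.

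Row names follow the genomic tRNA naming convention, in which the first number stands for a mature sequence and the second for a gene copy of it. By that convention the CTG rows cover 6 mature sequences and the TTG rows 3. Some of these are present as a pair of copies. RefSeq (assembly GRCr8, used for names and lengths only) lists 11 genes for the CTG form and 5 for the TTG form, each 72 to 73 bases long, so that levels of these rows can be set side by side without a length correction.

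The values are a read signal that the authors scaled per library. In every library 100% of the low values checked (239 to 264 of them) lay within 0.1 of a whole number of steps, a step being the smallest unit of that library. If 1 step is 1 read, the tRNA table holds 164342 to 481505 reads per library with a median of 391901. All 13 rows were above 0 in all 23 libraries. The 13 rows together held between 138 steps (0.8 ppm replicate 5) and 1057 steps (0.8 ppm replicate 4). The libraries 0.4 ppm replicates 5 and 6 stood apart, with mean Spearman correlations of 0.929 and 0.927 to the other libraries over all tRNA rows, where the other libraries had 0.954 to 0.974. Among miRNA markers, those of sperm and germ line took 25.1% to 53.2% of the miRNA table, and all 9 that were measured were above 0 in every library. Epithelial markers took 0.68% to 3.21% and were all above 0 in every library. Leukocyte markers took 0.0253% to 0.122%, with 3 of 5 above 0 in every library, and erythroid markers 0.0107% to 0.205%. No measured marker of these lists was at 0 in every library.

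Glutamine tRNA was a minor part of the sperm tRNA signal. Together the 13 rows held 0.119% ± 0.0501 of the summed tRNA table (SD, n = 23). The CTG rows held 0.0606% ± 0.0284 and the TTG rows 0.0588% ± 0.0222, against 31.8% for the 11 rows of tRNA-Gly-GCC, the leading anticodon. Per 100 bases of tRNA length, CTG ranked 28 and TTG ranked 29 of 38 anticodons that could be matched to a RefSeq length. That rank takes the sum over all rows of an anticodon. By mean signal per row and base, TTG ranked 27 and CTG ranked 32. The lowest glutamine share was 0.0482% in 0.4 ppm replicate 1 (95% Wilson interval 0.0412% to 0.0563%), and the highest was 0.220% in 0.8 ppm replicate 4 (0.207% to 0.233%). These intervals take 1 step as 1 read and cover counting error only.

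Although both anticodons summed to a like signal, the signal was spread differently over their genes. The mean level per row was 47.8 for TTG and 21.5 for CTG (scaled read signal, 23 libraries), since 9 CTG rows shared what 4 TTG rows carried. tRNA-Gln-TTG-4-1 was the highest glutamine row at 67.7 ± 18.1 (SD, n = 23), which placed it 148th of the 273 rows, and it held 35.4% of the TTG signal. It was followed by a set of 6 rows that differed from their neighbours in this order by less than the spread of the paired differences over libraries. These were tRNA-Gln-TTG-1-1 at 44.0, tRNA-Gln-CTG-1-2 at 42.0, tRNA-Gln-CTG-2-1 at 41.9, tRNA-Gln-TTG-3-2 at 39.9, tRNA-Gln-TTG-3-1 at 39.6 and tRNA-Gln-CTG-5-2 at 37.9. A lower set of 4 CTG rows came next, with tRNA-Gln-CTG-2-2 at 16.9, tRNA-Gln-CTG-1-1 at 16.2, tRNA-Gln-CTG-4-1 at 15.8 and tRNA-Gln-CTG-5-1 at 12.4. The rarest rows were tRNA-Gln-CTG-3-1 at 5.35 and tRNA-Gln-CTG-6-1 at 5.24. The steps between the 4 sets were larger than 1 SD of the paired difference: tRNA-Gln-TTG-4-1 exceeded tRNA-Gln-TTG-1-1 in 21 of 23 libraries, tRNA-Gln-CTG-5-2 exceeded tRNA-Gln-CTG-2-2 in 21, and tRNA-Gln-CTG-5-1 exceeded tRNA-Gln-CTG-3-1 in 22.

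**Figure D1:**
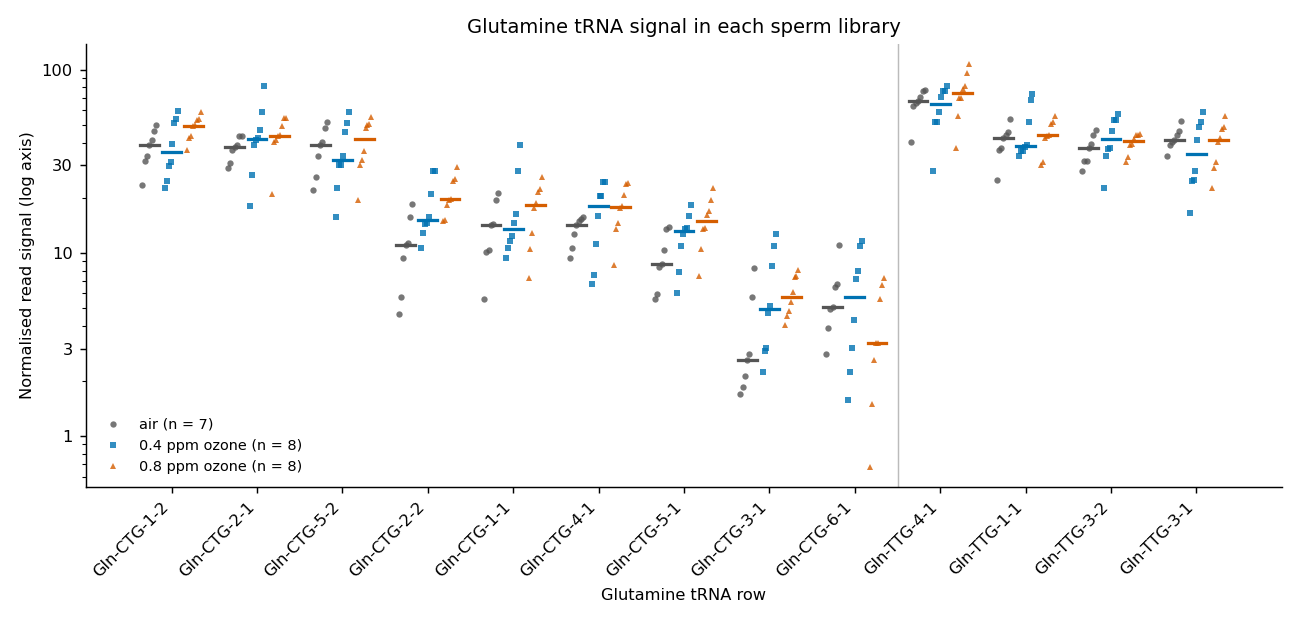
Scaled read signal (log axis) of each of the 13 glutamine tRNA rows in each library, with air, 0.4 ppm and 0.8 ppm ozone from left to right within a row, points for libraries and bars for group medians; CTG rows stand left of the grey line and TTG rows right of it. tRNA-Gln-TTG-4-1 is the highest row, 4 CTG rows lie near 12 to 17, and the groups overlap in every row.

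Gene copies numbered under 1 mature sequence did not share their signal evenly for CTG. The comparison of copies was chosen after the values were seen, and the sequences themselves were not compared. tRNA-Gln-CTG-1-2 exceeded its copy tRNA-Gln-CTG-1-1 in 23 of 23 libraries, with means that differed 2.59-fold. The same held for tRNA-Gln-CTG-2-1 over tRNA-Gln-CTG-2-2 in 23 of 23 libraries (2.48-fold), and for tRNA-Gln-CTG-5-2 over tRNA-Gln-CTG-5-1 in 22 of 23 (3.05-fold). By contrast tRNA-Gln-TTG-3-2 exceeded tRNA-Gln-TTG-3-1 in 10 of 23 libraries, and their means differed 1.01-fold. The sources used here do not give how reads that match several copies were assigned, so a row's value is uncertain wherever copies share sequence.

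No glutamine tRNA row passed the test for a difference with ozone. limma's moderated test on log2(signal + 1), fitted to all 273 rows with Benjamini-Hochberg adjustment, called 0 of 13 glutamine rows at an adjusted p of 0.05 in each of 4 contrasts, which were each ozone dose against air, the higher dose against the lower and the linear trend with ppm. It called 0 of all 273 rows (0%) in each of these as well, and so did a rank test on the 3 pairs of groups. Before adjustment, p was under 0.05 at 0.8 ppm for 3 of 13 glutamine rows, all CTG and all higher than air, beside 5 of 273 rows in either direction (1.83%) and 4 higher (1.47%). Leaving out 1 library at a time moved these counts at 0.8 ppm. They were 1 of 13 beside 6 of 273 without air replicate 2, and 2 of 13 beside 19 of 273 without 0.8 ppm replicate 7. For the trend p was under 0.05 for 3 of 13, beside 5 of 273 (1.83%). At 0.4 ppm it was under 0.05 for 1 of 13, beside 16 of 273 (5.86%), and between the ozone groups for 0 of 13, beside 6 of 273 (2.2%). The counts over all rows also rested on single libraries, with 7 of 273 at 0.4 ppm against air without 0.4 ppm replicate 6 and 27 without 0.4 ppm replicate 8. Between the ozone groups they were 3 of 273 without 0.4 ppm replicate 2 and 36 without 0.8 ppm replicate 7. Without 0.4 ppm replicate 6, 1 of 13 glutamine rows was under 0.05 there, beside 14 of 273. The rank test gave 3 of 13 beside 17 of 273 at 0.8 ppm against air. Both ozone groups are compared with the same 7 air libraries, so their fold changes are not independent.

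In direction, 11 of 13 glutamine rows had a positive log2 fold change at 0.8 ppm against air, beside 130 of 273 rows (47.6%). The positive rows were 8 of 9 for CTG and 3 of 4 for TTG. The median log2 fold change was 0.19 over glutamine rows, 0.35 over the CTG rows and 0.11 over the TTG rows, beside -0.02 over all rows. Rows of a similar level, with a mean signal of 5 to 100, were positive in 90 of 137 cases with a median of 0.07. At 0.4 ppm against air, 8 of 13 glutamine rows were positive with a median of 0.16, beside 131 of 273 (48%) and -0.01. The positive rows were 4 of 13 without 0.4 ppm replicates 5 and 6, and 12 of 13 without 0.4 ppm replicate 3. Positive rows over all 273 were not counted in those fits. These counts describe rows that share libraries and scaling, and they carry no test.

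**Figure D2:**
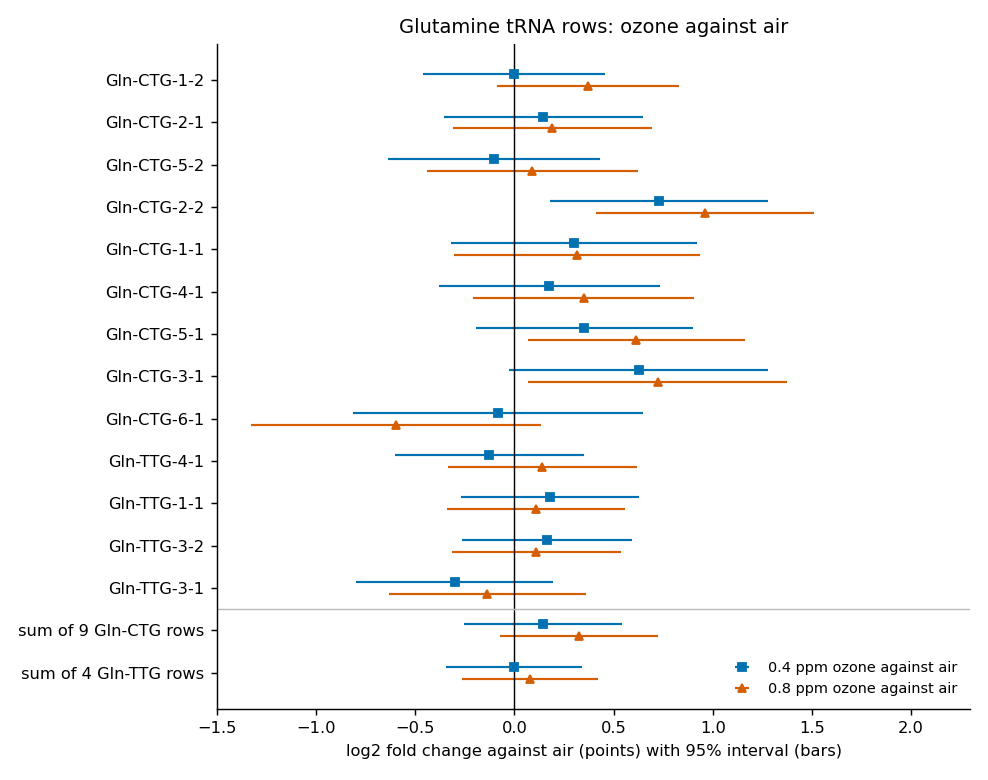
Log2 fold change against air of each glutamine tRNA row and of the 2 summed anticodons, with 95% limma intervals, for 0.4 ppm ozone (blue squares) and 0.8 ppm ozone (orange triangles). The interval of tRNA-Gln-CTG-2-2 lies above 0 at both doses, with 0.41 to 1.51 at 0.8 ppm, while no row passed at an adjusted p of 0.05.

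The largest fold change against air of a single glutamine row belonged to tRNA-Gln-CTG-2-2, one of the lower CTG rows. Its lowest, median and highest values were 4.64, 11.1 and 18.4 in air, 10.6, 15.1 and 28.0 at 0.4 ppm, and 14.9, 19.6 and 29.4 at 0.8 ppm. At 0.8 ppm 5 of 8 libraries lay above the highest air library and 8 of 8 above the air median, and at 0.4 ppm 3 of 8 lay above the highest air library. Against air the log2 fold change was 0.96 ± 0.27 at 0.8 ppm (SE, 95% interval 0.41 to 1.51), with a limma adjusted p of 0.293. It was 0.73 ± 0.27 at 0.4 ppm (0.18 to 1.28), with a limma adjusted p of 0.627, and 0.23 ± 0.26 between 0.8 and 0.4 ppm (-0.30 to 0.76). The trend was 1.19 ± 0.34 per ppm, with a limma adjusted p of 0.330. The row had the smallest p of all 273 at 0.8 ppm against air, 0.00107 before adjustment. Its values rest on 5 to 26 steps per library in air, 7 to 37 at 0.4 ppm and 8 to 44 at 0.8 ppm.

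The partner copy of that row had a smaller fold change, and the difference between the copies was not tested. tRNA-Gln-CTG-2-1 had lowest, median and highest values of 29.0, 37.7 and 43.2 in air, 18.1, 41.8 and 81.6 at 0.4 ppm, and 21.0, 43.7 and 54.8 at 0.8 ppm. The groups overlapped, and the 0.4 ppm libraries enclosed the range of both other groups. The log2 fold change at 0.8 ppm against air was 0.19 ± 0.25 (-0.31 to 0.69, limma adjusted p = 0.935). Within this pair of copies, tRNA-Gln-CTG-2-2 held 22.2% ± 8.01 of the signal in air, 29.9% ± 5.57 at 0.4 ppm and 32.9% ± 7.09 at 0.8 ppm (SD over 7, 8 and 8 rats). Its part of the whole CTG signal was 6.34% ± 2.37 in air, 9.38% ± 1.66 at 0.4 ppm and 9.85% ± 1.78 at 0.8 ppm. Both copies together summed to 48.0 ± 7.98 in air, 62.5 ± 25.4 at 0.4 ppm and 64.4 ± 12.5 at 0.8 ppm (SD). How reads that match both copies were assigned is not given, so the split between them is uncertain. These shares and sums are descriptions and were not tested.

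tRNA-Gln-CTG-3-1 and tRNA-Gln-CTG-5-1 were the other rows with an unadjusted p under 0.05 at 0.8 ppm. tRNA-Gln-CTG-3-1, at the low end of the table, had lowest, median and highest values of 1.69, 2.60 and 8.30 in air, 2.24, 4.92 and 12.7 at 0.4 ppm, and 4.01, 5.73 and 8.07 at 0.8 ppm. All 8 libraries at 0.8 ppm lay above the air median and none above the highest air library, and the log2 fold change was 0.72 ± 0.32 (0.07 to 1.37, limma adjusted p = 0.935). Its values rest on a mean of 7.88 steps per library at 0.8 ppm and 3.43 in air. tRNA-Gln-CTG-5-1 had 5.62, 8.66 and 13.8 in air, 6.04, 13.2 and 18.3 at 0.4 ppm, and 7.51, 14.9 and 22.6 at 0.8 ppm. Of the 0.8 ppm libraries 4 were above the air range and none below it, and the log2 fold change was 0.62 ± 0.27 (0.07 to 1.16, limma adjusted p = 0.935). tRNA-Gln-CTG-6-1, equally rare, had the opposite sign, with a log2 fold change of -0.60 ± 0.36 (-1.33 to 0.13, limma adjusted p = 0.935) and means of 3.84 at 0.8 ppm and 5.86 in air.

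Among the abundant CTG rows, tRNA-Gln-CTG-1-2 had lowest, median and highest values of 23.5, 39.0 and 50.0 in air, 22.6, 35.4 and 59.7 at 0.4 ppm, and 36.3, 49.6 and 58.8 at 0.8 ppm. The 0.8 ppm libraries filled the upper part of the air range, with 7 of 8 above the air median and 3 of 8 above the highest air library. The log2 fold change was 0.37 ± 0.23 at 0.8 ppm against air (-0.09 to 0.83, limma adjusted p = 0.935) and 0.37 ± 0.22 at 0.8 against 0.4 ppm (-0.07 to 0.82, limma adjusted p = 0.751). No other glutamine row had a smaller p between the ozone groups. tRNA-Gln-CTG-5-2 had 22.1, 39.0 and 51.7 in air, 15.6, 32.0 and 58.5 at 0.4 ppm, and 19.4, 42.0 and 55.5 at 0.8 ppm. The groups overlapped almost whole, and the log2 fold change at 0.8 ppm against air was 0.09 ± 0.26 (-0.44 to 0.63, limma adjusted p = 0.976). tRNA-Gln-CTG-1-1 had a log2 fold change of 0.32 ± 0.31 at 0.8 ppm, and tRNA-Gln-CTG-4-1 one of 0.35 ± 0.28, both with intervals that include 0.

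The TTG rows had fold changes against air with intervals that include 0 at both doses. tRNA-Gln-TTG-4-1 had lowest, median and highest values of 40.1, 67.6 and 77.9 in air, 28.1, 64.9 and 81.6 at 0.4 ppm, and 37.6, 74.5 and 107 at 0.8 ppm. Of the 0.8 ppm libraries 4 exceeded the highest air library and 1 was below the lowest, and the log2 fold change was 0.14 ± 0.24 (-0.34 to 0.62, limma adjusted p = 0.943). tRNA-Gln-TTG-1-1 had 24.9, 42.2 and 53.8 in air, 33.6, 38.5 and 74.2 at 0.4 ppm, and 30.1, 43.8 and 55.6 at 0.8 ppm. Its groups overlapped, with a log2 fold change at 0.8 ppm of 0.11 ± 0.22 (-0.34 to 0.56, limma adjusted p = 0.972). tRNA-Gln-TTG-3-2 had 27.9, 37.3 and 46.8 in air, 22.6, 42.0 and 57.3 at 0.4 ppm, and 31.5, 40.8 and 44.8 at 0.8 ppm, where no library left the air range. Its log2 fold change at 0.8 ppm was 0.11 ± 0.21 (-0.32 to 0.54, limma adjusted p = 0.954). tRNA-Gln-TTG-3-1 had the sign opposite to its copy, with -0.14 ± 0.25 at 0.8 ppm and -0.30 ± 0.25 at 0.4 ppm. The log2 fold changes at 0.4 ppm were -0.13 ± 0.24 for tRNA-Gln-TTG-4-1, 0.18 ± 0.22 for tRNA-Gln-TTG-1-1 and 0.16 ± 0.21 for tRNA-Gln-TTG-3-2.

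Summed over rows, the CTG signal was higher than air in most 0.8 ppm libraries without passing the test. Air libraries summed to 169 ± 26.3, libraries at 0.4 ppm to 196 ± 72.9 and those at 0.8 ppm to 213 ± 38.5 (SD over 7, 8 and 8 rats). Of the 0.8 ppm libraries, 5 lay above the highest air library and 3 within the air range. The log2 fold change at 0.8 ppm against air was 0.32 ± 0.20 (-0.08 to 0.72), and limma over 55 anticodon sums gave an adjusted p of 0.895. At 0.4 ppm against air it was 0.15 (limma adjusted p = 0.705), and without replicates 5 and 6 of that group, chosen after seeing the data, it was -0.06 (limma adjusted p = 0.935). The TTG sums were 186 ± 25.8 in air, 189 ± 43.9 at 0.4 ppm and 198 ± 33.9 at 0.8 ppm. Their log2 fold change at 0.8 ppm against air was 0.08 ± 0.17 (-0.27 to 0.42, limma adjusted p = 0.895).

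The ratio of summed CTG to summed TTG signal within a library does not depend on the library's scaling. It was 0.913 ± 0.124 in air (SD, range 0.734 to 1.11), 1.02 ± 0.182 at 0.4 ppm (0.775 to 1.25) and 1.08 ± 0.128 at 0.8 ppm (0.824 to 1.27). Of the 0.8 ppm libraries, 4 of 8 lay above the highest air library and 7 of 8 above the air median, and the ranges overlapped. The ratio was not tested.

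**Figure D3:**
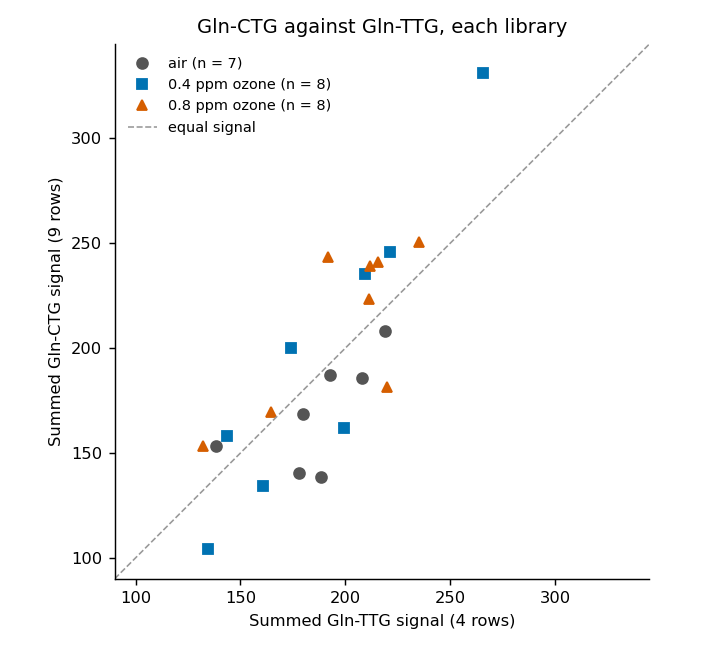
Summed signal of the 9 CTG rows (vertical axis) against that of the 4 TTG rows (horizontal axis), both as scaled read signal, with 1 point per library and a dashed line where both are equal. Of the 0.8 ppm libraries, 7 lie above the line and 1 below it, and of the air libraries 1 lies above it. The 0.4 ppm libraries lie on both sides of the line, with ratios of CTG to TTG from 0.775 to 1.25.

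The CTG and TTG signals both tended to be high where the total of the tRNA table was low. Pearson r of log2 sum and log2 total was -0.82 for CTG and -0.78 for TTG (n = 23 libraries). That total was 309559 ± 82638 at 0.8 ppm (scaled read signal, SD, n = 8) and 373594 ± 45278 in air (n = 7). It lay below the lowest air library in 5 of 8 libraries at 0.8 ppm, and these same 5 libraries were the 5 whose CTG sum lay above the highest air library. At 0.4 ppm the 2 libraries with a total below air, replicates 6 and 7, were among the 3 with a CTG sum above air. The overlap was smaller for TTG. At 0.8 ppm 2 of 8 libraries had a TTG sum above the highest air library, and 1 of them had a total below air. At 0.4 ppm the counts were again 2 of 8 and 1. The share of the table in a library's 10 leading rows was 59.6% ± 2.67 at 0.8 ppm and 64.1% ± 1.12 in air. As shares of the table, CTG was 0.0463% ± 0.0124 in air, 0.0586% ± 0.0337 at 0.4 ppm and 0.0752% ± 0.0285 at 0.8 ppm. TTG was 0.0510% ± 0.0126 in air, 0.0550% ± 0.0245 at 0.4 ppm and 0.0695% ± 0.0246 at 0.8 ppm.

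With the log2 table total as a covariate, the CTG sum at 0.8 ppm against air had a log2 fold change of 0.03 (limma adjusted p = 0.933) and the TTG sum one of -0.14 (limma adjusted p = 0.933). In that fit 5 of 13 glutamine rows were positive, all of them CTG, beside 113 of 273 rows (41.4%), and the glutamine median was -0.06, beside -0.03 over all rows. In it the limma p before adjustment was under 0.05 for 3 of 13 glutamine rows, beside 5 of 273 rows. In the same fit tRNA-Gln-CTG-2-2 was at 0.73 (limma adjusted p = 0.997). With every library set to an equal table total, the median of all rows at 0.8 ppm moved to 0.28 and that of the glutamine rows to 0.49, a common shift by construction. With quantile normalization the glutamine median was 0.09, beside 0.0044 over all rows. The part of the table total in these differences was not tested beyond these fits.

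**Figure D4:**
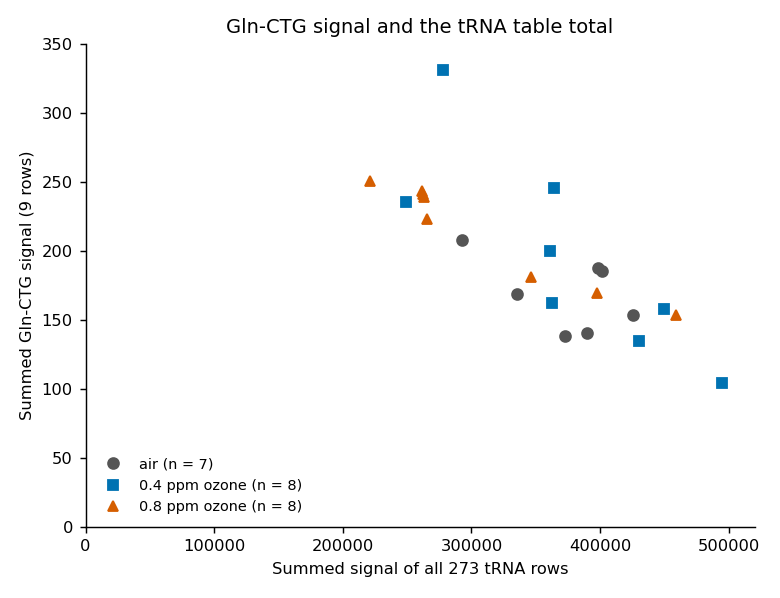
Summed signal of the 9 CTG rows (vertical axis) against the summed signal of all 273 tRNA rows (horizontal axis), both as scaled by the authors, with 1 point per library. The 5 libraries at 0.8 ppm with a table total below the lowest air library have CTG sums above the highest air library.

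Weighting libraries by their fit to the model gave calls that the unweighted fit did not. In the fit of group means to single rows, limma's library weights ran from 0.319 (0.4 ppm replicate 5) to 3.40 (air replicate 4). Air replicate 4 had the lowest value of all 23 libraries for tRNA-Gln-CTG-2-2 (4.64) and tRNA-Gln-CTG-1-1 (5.57). The 0.8 ppm replicates 5 and 7, with CTG sums of 169 and 153, had weights of 0.329 and 0.406. Air replicate 6, also with a CTG sum of 153, had 0.601, and air replicate 1, with the highest air sum (208), had 0.728. How far the calls rest on single weights was not tested. With the weights, 22 of 273 rows (8.06%) passed at 0.8 ppm against air, 6 higher and 16 lower. Of the 6 higher rows, 4 were CTG rows. These were tRNA-Gln-CTG-2-2 with a log2 fold change of 1.26 (limma adjusted p = 0.00140), tRNA-Gln-CTG-3-1 with 0.89, tRNA-Gln-CTG-1-1 with 0.79 and tRNA-Gln-CTG-5-1 with 0.78 (limma adjusted p = 0.0394 each). For the trend, where the weights were estimated anew and are not shown, 32 of 273 rows (11.7%) passed, again with 4 glutamine rows. No TTG row passed in any fit made. The other alternatives called no glutamine row. How reads shared by gene copies were assigned is not given, which limits these row calls as well.

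Glutamine rows varied together across libraries to a moderate degree. Over the 78 pairs of rows, Pearson r of log2(signal + 1) ran from -0.10 to 0.75 with a median of 0.45 (n = 23 libraries, which share their depth and scaling factor). The median was 0.46 within CTG, 0.40 within TTG and 0.45 between the anticodons, so rows were about as alike across anticodons as within one. The closest pair was tRNA-Gln-CTG-1-2 and tRNA-Gln-CTG-5-2. No pair of rows held identical values in all 23 libraries, and the most matches were in 4 libraries, for the rare rows tRNA-Gln-CTG-3-1 and tRNA-Gln-CTG-6-1. Outside glutamine, the rows most like tRNA-Gln-CTG-1-2 were tRNA-Leu-CAG-2-2 (r = 0.60), tRNA-Thr-CGT-3-1 (0.55) and tRNA-Ser-TGA-2-1 (0.55). Those most like tRNA-Gln-TTG-4-1 were tRNA-Val-TAC-2-1 (0.72), tRNA-Arg-ACG-3-1 (0.72) and tRNA-iMet-CAT-1-3 (0.67).

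**Figure D5:**
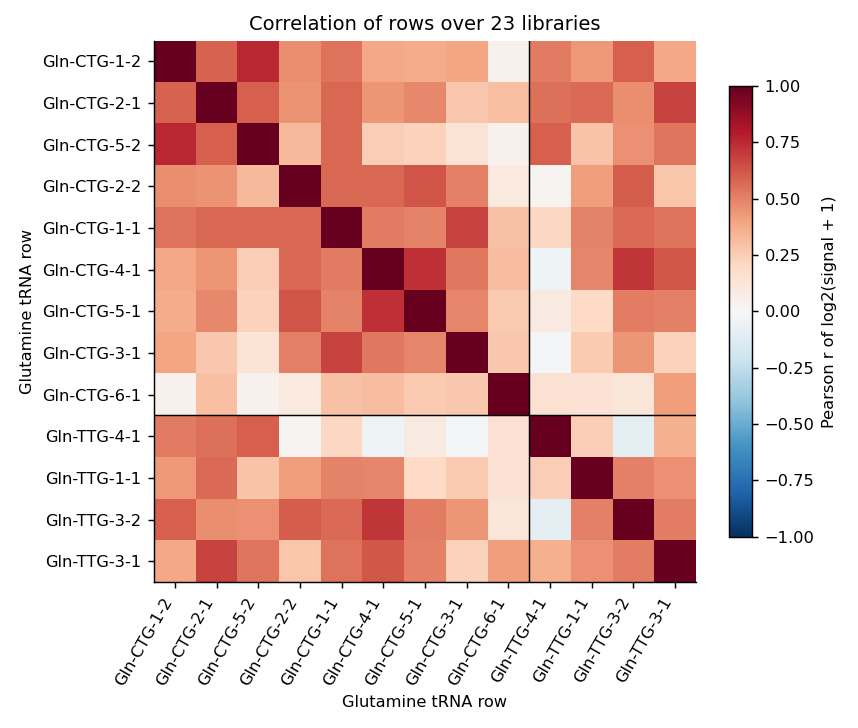
Pearson r of log2(signal + 1) over 23 libraries between each pair of glutamine tRNA rows, with CTG rows before the black lines and TTG rows after them and colour for r from -1 to 1. Values lie between -0.10 and 0.75 off the diagonal, and tRNA-Gln-CTG-6-1 is pale against most rows.

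The spread expected from counting was large for the rarest rows, and its part in the observed spread differed between groups. Taking 1 step as 1 read, the coefficient of variation expected from counting alone had a median of 16.2% over the 13 rows, where the observed one was 32.8% (23 libraries). In air, tRNA-Gln-CTG-3-1 had an observed coefficient of 69.3% and a counting one of 55.4%. At 0.4 ppm these were 63.4% and 42.1%. At 0.8 ppm its observed coefficient was 25.6%, below the counting one of 40.5%. For tRNA-Gln-CTG-6-1 the observed and counting coefficients were 45.5% and 42.4% in air. They were 64.0% and 42.9% at 0.4 ppm, and 62.7% and 54.3% at 0.8 ppm.

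Rows of 8 anticodons named in studies of mouse sperm tRNA fragments, among them tRNA-Gly-GCC, tRNA-Glu-CTC and tRNA-Val-CAC, were read beside the glutamine rows. Of these 70 rows, limma called 0 in every contrast, and their median log2 fold change was -0.05 at 0.8 ppm and 0.15 at 0.4 ppm against air. The glutamine medians of 0.19 and 0.16 stand beside these as values, with no test of the difference.

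Markers of other cell types differed between libraries too. The muscle and stroma miRNAs, of which 3 of 5 were in the table, took 1.53% to 2.79% of the miRNA table in air, 1.84% to 4.17% at 0.4 ppm and 1.59% to 11.3% at 0.8 ppm. The 11.3% was in 0.8 ppm replicate 7, the library with the lowest CTG and TTG sums at that dose, 153 and 132. The next highest share, 4.17% in 0.4 ppm replicate 5, went with high sums of 246 and 221. Epithelial miRNAs took 0.680% to 1.45% in air, 1.05% to 3.21% at 0.4 ppm and 0.693% to 2.93% at 0.8 ppm. The 3.21% was in 0.4 ppm replicate 6, the library with the highest CTG and TTG sums of all 23, 331 and 266. The next highest epithelial shares went with low sums. These were 2.93% in 0.8 ppm replicate 5 (169 and 165) and 2.45% in 0.4 ppm replicate 2 (158 and 143). The part of these markers in the glutamine values was not tested.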

How the data were processed

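Small RNA of 23 cauda sperm samples was sequenced, with each library from 1 labelled rat. Per the labels' protocols, mirVana small RNA went into CleanTag libraries that were read from 1 end on an Illumina NextSeq instrument. RNA integrity numbers were 2 to 4 over all samples. Bowtie 1.0.0, Partek and the rn6 build are named in the submitters' processing notes. The rule that assigned reads to tRNA genes was not given in those sources. The deposited tRNA and miRNA values are a normalised read signal, scaled per library by the authors and taken here as signal rather than counts, so no count model was used. Of the 8 rats per group in the design text, 7 are labelled for air.

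Values were transformed as log2(value + 1), and rows above 0 in at least 8 libraries were tested, which kept all 273. limma 3.58.1 (R 4.3.3) was run on all 3 groups as 1 model, with robust moderation and a mean-variance trend, two-sided, with Benjamini-Hochberg adjustment over 273 rows or 55 anticodon sums per contrast. Fold changes on this scale understate the change of low rows. Share intervals are 95% Wilson intervals. The fit was tested on simulated data. Rows with full statistics are the 3 most abundant of each anticodon, the row with the smallest p in each contrast, and rows called under any alternative. The members and lists were chosen with earlier results of these data known. Alternatives were other pseudocounts (0.5, 5), a mean of at least 10, no filter, equal table totals, quantile normalization, library weights, fits to the compared groups alone, the table total as a covariate, an exact rank-sum test, repeated rows kept once, and leaving out each library. The limma p-values set a difference against the residual spread between libraries, which holds counting error as well as differences between these rats.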

Additional observations from a re-analysis of the deposited data

Results flagged for a closer look

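Of 54 groups of values examined for a single library far from the rest, 3 had one, where chance alone gives about 1 in 20 groups, or 2.7 here. tRNA-Gln-CTG-2-1 was at 21.0 in 0.8 ppm replicate 7, where the other 7 libraries of that group lay between 40.4 and 54.8. tRNA-Gln-TTG-4-1 was at 40.1 in air replicate 6, where the other 6 lay between 63.7 and 77.9. The CTG share of the tRNA table was 0.0711% in air replicate 1, where the other 6 lay between 0.0361% and 0.0503%.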

How the results depend on the processing

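No paired analysis was possible because the labels give no replicate number that is shared between the groups. Values are log2 fold changes unless named otherwise. With the tRNA table total as a covariate, signs turned at 0.8 ppm against air for tRNA-Gln-CTG-2-1 (-0.13), tRNA-Gln-CTG-5-2 (-0.29), tRNA-Gln-CTG-1-1 (-0.019), tRNA-Gln-TTG-4-1 (-0.088), tRNA-Gln-TTG-1-1 (-0.071), tRNA-Gln-TTG-3-2 (-0.064) and the TTG sum (-0.14). In that fit they also turned for the CTG and TTG sums at 0.8 against 0.4 ppm (-0.094 and -0.12) and the TTG trend (-0.17 per ppm). Quantile normalization turned the TTG sum at 0.8 ppm (-0.0078) and its trend (-0.0065). Library weights, estimated anew for the trend and for the sums, called 4 glutamine rows at 0.8 ppm and 4 for the trend. They put the trend of the CTG sum past the threshold (0.57 per ppm, limma adjusted p = 0.0481). They also turned tRNA-Gln-TTG-1-1 at 0.4 ppm (-0.040). At 0.4 ppm against air, equal table totals turned the TTG sum (0.021) and tRNA-Gln-CTG-1-2 (0.022), and a pseudocount of 5 turned tRNA-Gln-CTG-1-2 (0.0011). Without 0.4 ppm replicates 5 and 6, an alternative chosen after seeing the data, the CTG sum at 0.4 ppm was -0.062, tRNA-Gln-CTG-2-1 -0.11 and tRNA-Gln-TTG-1-1 -0.036. The cause of these turns was not tested.

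Leaving out 1 library at a time called 0 glutamine rows in every contrast. At 0.4 ppm against air these fits ran from -0.078 to 0.062 for the TTG sum, -0.11 to 0.094 for tRNA-Gln-CTG-1-2, -0.22 to 0.045 for tRNA-Gln-CTG-5-2 and -0.24 to 0.022 for tRNA-Gln-TTG-4-1. At 0.8 ppm they ran from -0.021 to 0.23 for tRNA-Gln-CTG-5-2, -0.0010 to 0.18 for tRNA-Gln-TTG-1-1, 0.28 to 0.39 for the CTG sum and 0.0095 (without air replicate 6) to 0.16 (without 0.8 ppm replicate 7) for the TTG sum. The CTG sum at 0.4 ppm ran from 0.026 (without 0.4 ppm replicate 6) to 0.26 (without 0.4 ppm replicate 1). Between 0.8 and 0.4 ppm the sums ran from 0.060 to 0.30 for CTG and from 0.017 to 0.16 for TTG. The TTG trend ran from 0.022 to 0.20 per ppm. tRNA-Gln-CTG-2-2 at 0.8 ppm ran from 0.80 to 1.10 when 1 library was left out. Of the 2 fits at these ends, 1 had a limma adjusted p of 0.0855 and the other 0.977. The adjusted p of the remaining leave-one-out fits was not kept for this row. Under the other alternatives tRNA-Gln-CTG-2-2 ran from 0.73 to 1.26 (limma adjusted p from 0.00140 to 0.997). A mean of at least 10 left 11 glutamine rows, without tRNA-Gln-CTG-3-1 and tRNA-Gln-CTG-6-1. The fits to the compared groups alone and the rank-sum test give no trend. No rows of the table repeated each other. Depth limits the rare rows most, with 1 step as the lowest value of tRNA-Gln-CTG-6-1.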
